A study of Mus musculus with 6 samples.

Results

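The microRNA (miRNA) genes mir-135a-1, mir-135a-2, mir-135b and mir-1251 were 4 of the 898 miRNA genes in the deposited small-RNA table. They were chosen by name, as the miR-135 family and the miRNA in an intron of the long noncoding RNA Rmst, after their mean levels in both groups were known, so their levels are given here as a description with no test. The cells were mouse E14Tg2a embryonic stem cells (ESCs), a single pluripotent line. The 3 ESC libraries came from cells kept in leukemia inhibitory factor (LIF), and the 3 libraries of neuronal cells (NCs) from the same line after 48 hours in medium that lacked LIF and held 1 µM retinoic acid (RA). No sorting step was described, so the NC libraries held whatever cells the RA-treated cultures held.

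A miRNA gene is transcribed as part of a longer RNA, from which a hairpin is cut and then trimmed to a mature strand of little more than 20 nucleotides. Bases 2 to 8 of the mature strand, the seed, do most of the pairing with target mRNAs, so miRNAs that share a seed are grouped as a family. miR-135 is known as a regulator of Wnt signaling through the Apc mRNA, and miR-135a is expressed in the developing brain. Rmst is expressed in the developing midbrain and is known as a partner of SOX2 in neurogenesis. Target mRNAs and Rmst itself were not analysed here.

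The mature sequences are shown because they set how alike the reads of the members are. They are RefSeq sequences on GRCm38.p6, printed 5′ to 3′ with the seed in capitals. The sequence table matched 745 of the 898 miRNA genes by symbol, including all 4 members. miR-135a-5p is the same 23 bases from both gene copies (chr9:106154140-106154162, plus strand, and chr10:92072141-92072163, minus strand). For mir-135b the line gives the stretch of the hairpin most like miR-135a-5p (chr1:132198103-132198125, plus strand).
miR-135a-5p: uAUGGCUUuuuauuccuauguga
mir-135b stretch: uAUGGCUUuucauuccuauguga
miR-1251-5p: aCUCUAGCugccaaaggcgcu
The mir-135b stretch differed from miR-135a-5p only by U11C, counted from the 5′ end of miR-135a-5p, which lies outside the seed. Whether reads with a mismatch were counted is not given in the sources used here, so reads of mir-135b and mir-135a may not be fully separate. No other mature sequence in the table held the seed AUGGCUU, nor the seed CUCUAGC of miR-1251-5p (chr10:92137190-92137210, minus strand). Mature sequences were at hand for 740 of the 898 genes, and no mature miR-135b-5p was listed, so this search was not complete.

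The seeds of the opposite arms of the miR-135 hairpins were similar but not identical.
miR-135a-1-3p: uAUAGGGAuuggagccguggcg
miR-135a-2-3p: uGUAGGGAuggaagccaugaa
miR-135b-3p: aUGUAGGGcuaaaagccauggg
miR-1251-3p: cGCUUUGCucagccaguguag
These 3p arms would tell the 2 mir-135a copies apart, whereas the shared 5p arm would not. The hairpins of mir-135a-1 and mir-135a-2 held a common run of 24 bases. Either one shared a run of only 14 or 13 bases with mir-135b, and mir-1251 shared at most 7 with any of them. The table gives 1 value for each gene and does not separate the arms.

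On GRCm38 (GENCODE M21), mir-135a-1 lies on chromosome 9 (106154124 to 106154213, plus strand), in an intron of the noncoding D030055H07Rik and opposite an exon of the 3′ UTR of Glyctk. mir-135b lies on chromosome 1 (132198088 to 132198184, plus strand), in an intron of Lemd1 and of AC124108.1. The other 2 members lie on the minus strand of chromosome 10. mir-1251 (92137140 to 92137223) is in an intron of Rmst, and mir-135a-2 (92072086 to 92072185) lies 64955 bases further along the same strand. In GENCODE, Rmst (92071037 to 92165170) extends over both, with mir-135a-2 in an intron. In RefSeq, Rmst (92081746 to 92165178) ends 9561 bases before mir-135a-2. The only other miRNA gene of the table within 100 kb of a member was let-7g, 24627 bases from mir-135a-1.

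**Figure D1:**
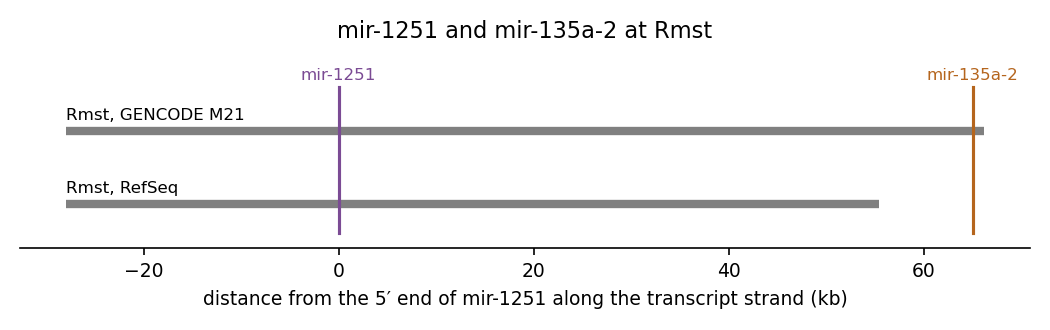
The extent of Rmst in GENCODE M21 and in RefSeq (grey bars) with mir-1251 and mir-135a-2 (vertical lines); the x axis is the distance in kb from the 5′ end of mir-1251 along the transcript strand. mir-1251 lies within Rmst in both annotations, and mir-135a-2 lies within it in GENCODE but 9561 bases past its end in RefSeq.

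The authors' values were means over each group, in reads scaled by library size factors, and are called normalized reads here. Whole reads of the single libraries were recovered from these means for all 4 members. The recovered libraries could not be tied to replicate numbers. They are called A, B and C, where A has the largest size factor (factors of 1.62, 0.937 and 0.547 in ESCs and 2.31, 0.977 and 0.585 in NCs). The reads resolved per library ranged from 99810 to 417290. Library C stood apart from A and B in both groups. Over the 296 miRNAs with a mean of at least 10 in ESCs, the log2 difference of C from the mean of A and B had an SD of 1.31, and the difference between A and B had one of 0.37. In NCs the corresponding SDs were 1.19 and 0.27 over 312 miRNAs. Values with and without library C are therefore given below. All 12 ESC marker miRNAs (the clusters of mir-290a and mir-302a) had lower means in NCs, and all 6 neuronal ones had higher means. However, the means of the ESC list still summed to 31426 in NCs (137809 in ESCs). Those of the neuronal list summed to 2319 in NCs (1272 in ESCs). In addition, mir-124, the defining miRNA of mature neurons, had means of only 5.19 to 6.02 for its 3 copies in NCs. The 5 muscle miRNAs were listed at 0 in both groups. In the list for blood cells, mir-144 and mir-451a were at 4.77 or lower in every library, whereas mir-150 and mir-142 were abundant and uneven. mir-150 had 1154, 1028 and 13159 normalized reads in ESC libraries A, B and C and 347, 371 and 1611 in NC libraries A, B and C, and was thus highest in library C of both groups. The summed level of the 4 blood miRNAs was 2243 to 13499 in ESCs and 859 to 1659 in NCs, and 3 of the 4 had lower means in NCs; their part in the levels below was not tested. Among the 5 liver and endoderm miRNAs, the 4 above 0 had lower means in NCs, but the differences were small or near the floor. In ESCs and NCs the means were 2133 and 1758 for mir-192 and 43.2 and 35.6 for mir-194-1. They were 49.7 and 46.6 for mir-194-2 and 0.411 and 0 for mir-122.

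mir-135a was nearly absent from ESCs and was read from every NC library. At mir-135a-1, 4, 4 and 2 reads were recovered from ESC libraries A, B and C, or 2.47, 4.27 and 3.65 normalized reads. NC libraries A, B and C held 161, 58 and 12 reads, or 69.8, 59.4 and 20.5 normalized reads. Thus every NC library lay above every ESC library, although NC library C was well below the other two. The mean was 3.46 ± 0.916 normalized reads in ESCs and 49.9 ± 26.0 in NCs (SD, n = 3 each), a ratio of 14.4. The ratio of read rates summed over each group was 18.6, with a 95% interval of 9.91 to 39.2 for counting error only.

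mir-135a-2 had nearly the same reads as mir-135a-1 in every library. ESC libraries A, B and C held 5, 5 and 2 reads, or 3.08, 5.33 and 3.65 normalized reads. NC libraries A, B and C held 165, 59 and 11 reads, or 71.5, 60.4 and 18.8 normalized reads. The groups again did not overlap, and the means were 4.02 ± 1.17 in ESCs and 50.2 ± 27.8 in NCs (SD, n = 3 each), a ratio of 12.5. The 2 copies differed by -1 to 4 reads in a library. How reads that match both copies were counted is not given in the sources used here, so the higher NC level cannot be placed at the copy near Rmst or at the copy on chromosome 9. In these bulk cultures, more cells with mir-135a and more of it per cell cannot be told apart either.

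mir-1251, whose hairpin shares no long run with the others, was at the limit of detection in ESCs. ESC libraries A and B held 0 reads, which allows up to 3 reads in each, or 1.85 and 3.20 normalized reads, and library C held 1 read (1.83 normalized reads). NC libraries A, B and C held 116, 49 and 22 reads, or 50.3, 50.2 and 37.6 normalized reads. The NC libraries lay close together, with a mean of 46.0 ± 7.28 (SD, n = 3) and a coefficient of variation of 15.8%, against 52.0% for mir-135a-1 and 48.1% for mir-135b. With a single read in the ESC group, the ratio of read rates was 150, with a 95% counting interval from 26.6 to 5964. Its size is thus poorly known, whereas its direction did not depend on any 1 library.

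mir-135b was the abundant member in ESCs and was the 1 member with a lower mean in NCs. ESC libraries A, B and C held 799, 473 and 58 reads, or 493, 505 and 106 normalized reads. NC libraries A, B and C held 434, 168 and 37 reads, or 188, 172 and 63.3 normalized reads. ESC library C lay below NC libraries A and B, so the groups overlapped, and the means of 368 ± 227 in ESCs and 141 ± 67.9 in NCs (SD, n = 3 each) differed by about as much as the ESC libraries did among themselves. Within libraries A and B the mean was 2.77-fold lower in NCs (499 against 180), and between the 2 C libraries it was 1.67-fold lower (106 against 63.3). In both groups the level of mir-135b in library C lay further below A and B than that of most miRNAs. Its log2 difference from A and B was -2.22 in ESCs, where 4.05% of the 296 miRNAs were lower still, and -1.49 in NCs, where 13.8% of the 312 were lower. In NCs the differences were -1.60 for mir-135a-1, -1.75 for mir-135a-2 and -0.41 for mir-1251. The part of library C in these levels was not tested.

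**Figure D2:**
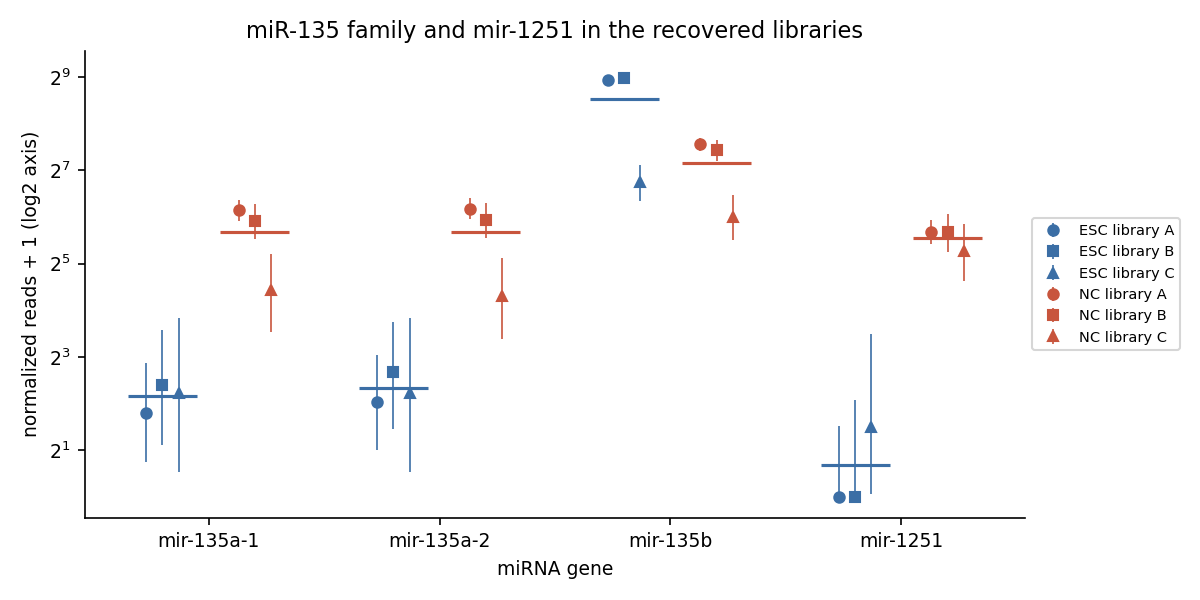
Normalized reads + 1 (log2 axis) of the 4 members in each recovered library, ESCs in blue and NCs in red, with 95% Poisson intervals (counting error only; for 0 reads the line ends at 3 reads) and group means as horizontal lines. For mir-135a-1, mir-135a-2 and mir-1251 every NC library lies above every ESC library, and for mir-135b the ESC library C (106) lies below NC libraries A (188) and B (172).

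Of the 4 members, 3 did not overlap between the groups, all higher in NCs. Separation of this kind was found in 99 (31.9%) of the 310 miRNAs that were resolved in both groups and averaged 10 or more normalized reads, and in 54 (17.4%) the NC libraries were the higher ones. Since the members were chosen with these levels known, nothing is read from the count.

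**Figure D3:**
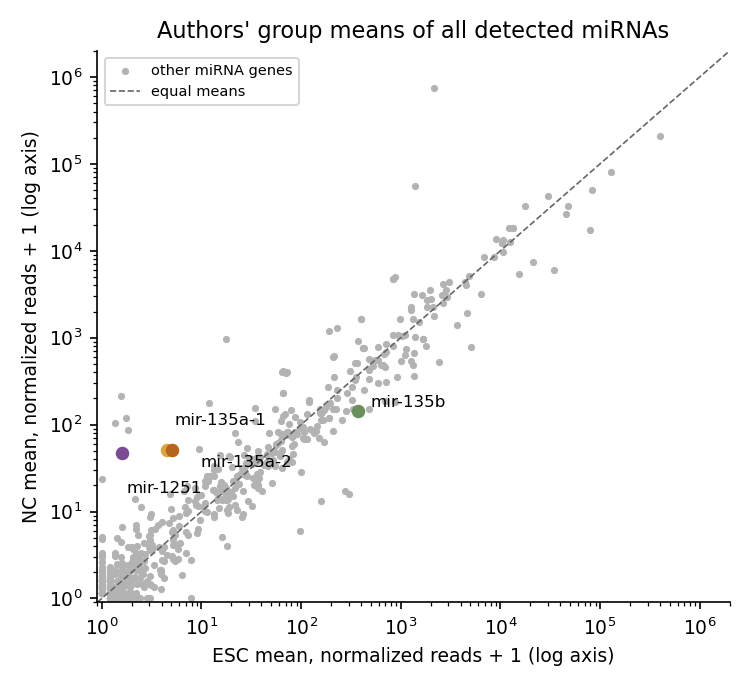
The authors' group means + 1 of all 634 detected miRNA genes, in normalized reads on log axes, ESCs on the x axis and NCs on the y axis, with a dashed line at equal means. mir-135a-1 (3.46 and 49.9), mir-135a-2 (4.02 and 50.2) and mir-1251 (0.609 and 46.0) lie above the line, and mir-135b (368 and 141) lies below it.

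Mature miRNAs differ little in length, but small-RNA libraries take up some sequences more readily than others, so the order of different miRNAs by reads need not be their order in the cell. In ESCs the order by mean was mir-135b, mir-135a-2, mir-135a-1 and mir-1251, which stood at ranks 98, 362, 368 and 466 of the 898 genes. Only 549 of the genes were above 0 in ESCs, and 602 in NCs. In ESCs the 2 mir-135a copies did not differ beyond their spread, mir-135b was far above them in every library, and mir-1251 was at 0 or 1 read. In NCs the order was the same, at ranks 137, 213, 215 and 220. There mir-135a-1, mir-135a-2 and mir-1251 did not differ beyond their spread. For mir-135b the NC range (63.3 to 188) overlapped that of mir-135a-2 (18.8 to 71.5), but within each NC library mir-135b was 2.63-fold to 3.36-fold above mir-135a-2.

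In NCs the share of mir-135b in the family's reads varied less between libraries than the level of mir-135b did. In ESCs the share lay close to its upper bound, which by itself keeps its spread small. With the mir-135a copies counted once, by the reads at mir-135a-1, mir-135b made up 99.5% (95% Wilson interval 98.7% to 99.8%), 99.2% (97.9% to 99.7%) and 96.7% (88.6% to 99.1%) of the family's reads in ESC libraries A, B and C. The share was 72.9% (69.2% to 76.4%), 74.3% (68.3% to 79.6%) and 75.5% (61.9% to 85.4%) in NC libraries A, B and C. The groups did not overlap, and the share in NC library C was within the intervals of NC libraries A and B, whereas that in ESC library C was below the intervals of ESC libraries A and B. The share is a ratio within a library and takes no size factor. It holds only if reads that match both mir-135a copies were counted in full at each. If they were split between the copies, the share of mir-135b would be lower. The means were 98.4% ± 1.55 in ESCs and 74.3% ± 1.29 in NCs (SD, n = 3 each). Expressed as a ratio, mir-135b outnumbered mir-135a-1 by 200-fold, 118-fold and 29.0-fold in ESC libraries A, B and C, and by 2.70-fold, 2.90-fold and 3.08-fold in NC libraries A, B and C. The ESC ratios rest on 2 to 4 reads of mir-135a-1, and whether some of these were reads of mir-135b was not tested.

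The summed level of the family had a lower mean in NCs, although that of mir-135a was higher there. The sum of the family, which shares 1 seed, was 495, 509 and 110 normalized reads in ESC libraries A, B and C and 258, 231 and 83.8 in NC libraries A, B and C. Its mean was 371 ± 227 in ESCs and 191 ± 93.8 in NCs (SD, n = 3 each), and the groups overlapped through ESC library C. The sum was 2.05-fold lower in NCs in libraries A and B and 1.31-fold lower between the C libraries. Like the share, the sum assumes that reads matching both mir-135a copies were counted in full at each. If they were split, the part of mir-135a would be larger and the NC sums would come closer to those of ESCs.

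**Figure D4:**
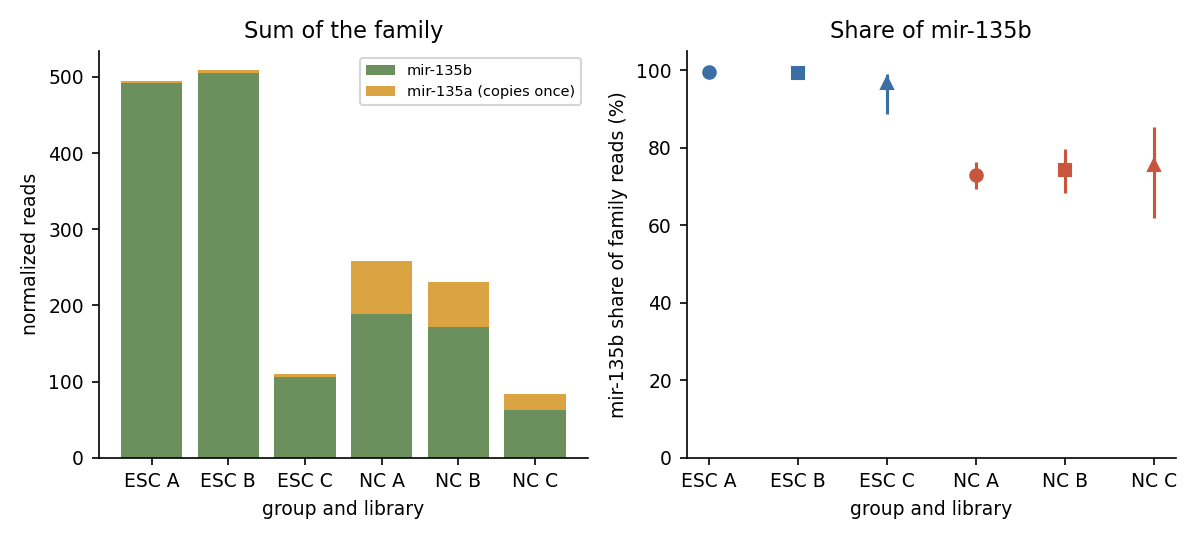
Left, normalized reads of mir-135b and of mir-135a (copies counted once) stacked for each library; right, the share of mir-135b in the family's reads (%) with 95% Wilson intervals, which cover counting error only. The sum is lowest in library C of both groups, and the share is 96.7% to 99.5% in ESCs and 72.9% to 75.5% in NCs.

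The Rmst pair can be compared within NC libraries. mir-135a-2 had 1.42-fold and 1.20-fold the reads of mir-1251 in NC libraries A and B, and mir-1251 had 2.00-fold those of mir-135a-2 in library C, where they held 22 and 11 reads. The order of the pair thus changed with the library. The reads of mir-135a-2 may include those of the copy on chromosome 9.

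To find miRNAs with a like pattern, the values log2(normalized reads + 1) over the 6 libraries were centred on their mean for each miRNA, and the root mean square difference was taken between each member and 306 other miRNAs. The nearest to mir-1251 were mir-100 (0.49), mir-216b (0.60) and mir-99a (0.60), where the median over all 306 was 2.67. mir-216b had at most 1.83 normalized reads in an ESC library and 61.1, 67.6 and 128 in NC libraries A, B and C. The nearest to mir-135a-1 were mir-335 (0.75), mir-488 (0.79) and mir-138-2 (0.79), and to mir-135a-2 they were mir-335 (0.63), mir-879 (0.77) and mir-488 (0.78), with medians of 1.87 and 1.79. mir-335, a far more abundant miRNA in an intron of the imprinted gene Mest, had 1046, 1194 and 411 normalized reads in ESC libraries A, B and C and 6728, 6588 and 1556 in NC libraries A, B and C. Thus mir-335 shared with mir-135a the higher NC level and the lower level of NC library C. mir-335 was also low in ESC library C. In ESCs the log2 differences of C from A and B were 0.12 for mir-135a-1 and -0.13 for mir-135a-2. These rest on 2 reads of each copy in ESC library C, with a Poisson interval of 0.442 to 13.2 normalized reads. Whether mir-135a was also low in ESC library C thus cannot be told. The nearest to mir-135b were mir-98 (0.33), a let-7 family member, mir-136 (0.45) and mir-200a (0.45), with a median of 1.17. mir-98 had 42.5, 45.9 and 9.13 normalized reads in ESC libraries A, B and C and 24.7, 24.6 and 8.55 in NC libraries A, B and C. Among the members, the 2 mir-135a copies were 0.14 apart, mir-135a-1 and mir-1251 were 1.05 apart, and mir-135a-1 and mir-135b were 2.43 apart.

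**Figure D5:**
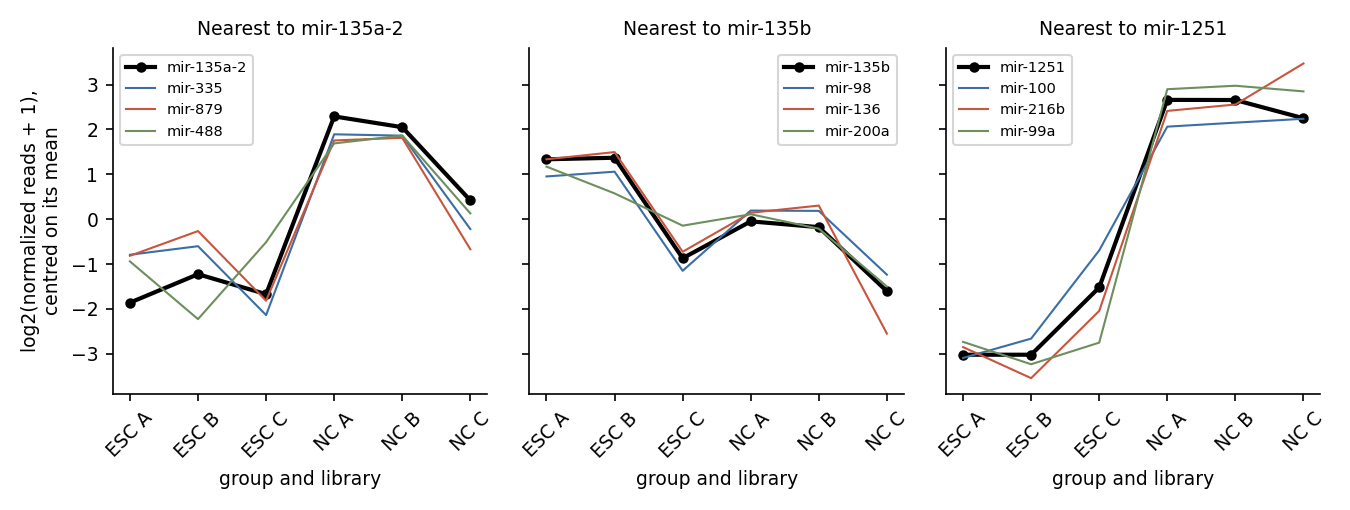
log2(normalized reads + 1), centred on its mean over the 6 recovered libraries (x axis, group and library), for mir-135a-2, mir-135b and mir-1251 (black) and the 3 nearest other miRNAs of each (colours); lines only guide the eye. mir-1251 and its neighbours are high in all 3 NC libraries, and mir-135b and mir-98 are low in library C of both groups.

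The groups were also compared for 20 other brain-enriched miRNA genes. In limma with voom weights, 13 of the 20 had enough reads to be tested, and 3 were called at an adjusted p-value under 0.05, all higher in NCs, where 51 of all 318 miRNAs tested were called (16.0%) and 32 of them were higher in NCs (10.1%). The median log2 fold change (FC) of the 13 was 0.91, against -0.07 over all tested. The 13 included copies of mir-9, mir-129, mir-138 and mir-218 with nearly equal reads. The counts, here and below, and the median thus treat copies of 1 miRNA as separate genes, and the median was the value of mir-9-2. mir-138-1 and mir-138-2, copies of a brain-enriched miRNA known to limit dendritic spine size, rose by log2 FCs of 2.57 ± 0.257 and 2.56 ± 0.253 (SE; limma adjusted p = 0.000863 for both). mir-138-1 had 60.4, 66.1 and 87.7 normalized reads in ESC libraries A, B and C and 365, 383 and 469 in NC libraries A, B and C, so that library C was here the highest. mir-219a-2, a copy of a miRNA known for oligodendrocyte maturation, had 1, 1 and 0 reads in ESC libraries A, B and C and 276, 305 and 61.6 normalized reads in NC libraries A, B and C. It was called as higher in NCs (limma adjusted p = 0.0103), but not without ESC library A or B (limma adjusted p of 0.0892 or 0.0910). With at least 10 reads only in NC libraries (636, 298 and 36), mir-219a-2 entered the fit through the group where it was high. The call of mir-219a-2, and its place in the counts, is thus a description. Its ratio of read rates, 970 reads in NCs against 2 in ESCs, was 390 with a 95% counting interval from 108 to 3221.

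The 3 copies of mir-9, which acts in neural progenitors, had log2 FCs of 0.89 to 0.91 and a limma adjusted p of 0.0766. mir-218-1 and mir-218-2, enriched in motor neurons, had log2 FCs of 1.65 and 1.76 (limma adjusted p = 0.140 and 0.193). In these the NC libraries A and B (284 to 305 normalized reads) lay above library C (104), as for the miR-135 family. With the library set (C, or A and B) as a covariate, 9 of the 13 were called, all higher in NCs, where the same fit called 146 of all 318 miRNAs (45.9%) and 75 of them were higher in NCs (23.6%). The set was defined by size factor alone, and no label ties library C of ESCs to library C of NCs. This fit thus assumes that the C libraries of both groups share a shift, and its p-values hold only under that assumption. The added calls had adjusted p values from limma of 0.00321 to 0.00388 for mir-9, 9.71e-06 and 3.87e-05 for mir-218 and 0.0220 for mir-219a-1. mir-128-1, mir-129-1 and mir-129-2 had log2 FCs of -0.05, -0.22 and -0.15 and were not called (limma adjusted p of 0.935, 0.782 and 0.854). The 3 copies of mir-124 and mir-132 had too few reads to be tested, and mir-128-2, mir-137 and mir-153 were listed at 0 in both groups. Which copy of mir-9, mir-138 or mir-218 gave the reads is as uncertain as for mir-135a. The labels number the miRNA replicates without saying whether they came from separate cultures, and the study's account of its replicates was given for RNA-seq, so these p-values measure the spread between these samples, which may be technical.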

How the data were processed

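Small-RNA libraries of mouse ESCs and NCs (3 each, grouped by sample title) were made by the authors from total RNA. The deposited table held the authors' group means as a signal, namely read counts divided by size factors; DESeq and mm10 (GRCm38) were listed in the submitters' processing notes. The aligner, miRNA annotation and counting rules are not given in the sources used here. Columns of the authors' own fold changes and p-values were not used.

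In a mean deposited with 10 decimals, 1 read of each of the 3 libraries adds a fixed amount, so the whole reads behind it were found by enumeration. Size factors were refined to the ratio of 1 miRNA to its geometric mean. In ESCs 539 of the 549 miRNAs with a value above 0 were resolved (98.2%, with 23.2% of the signal), and in NCs 582 of 602 (96.7%, with 10.4% of the signal). The solver recovered simulated reads when it was given the size factors, so their own recovery was not covered. A count of 0 allows up to 3 reads, and intervals (95%) cover counting error only.

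limma 3.58.1 (R 4.3.3) with voom weights and the recovered size factors was fitted to miRNAs for which 3 or more libraries held at least 10 reads. Where libraries were left out, the filter asked for only as many libraries as the smaller group held. Benjamini-Hochberg adjustment was used. The fit was run on simulated counts, but these held no library effect like that of library C, so they cannot show how the fit handles it. Log2 FCs of members used a pseudocount of 1, which understates changes of low miRNAs. Named miRNAs were the 4 members, the 3 nearest profiles of each, those sharing a seed or lying within 100 kb, and fixed lists. Members and lists were chosen with earlier results of these data known. Other steps ran in Python 3.11.15 with scipy 1.17.1, pandas 2.3.3 and numpy 2.4.6. Alternatives covered scaling, pseudocount, filter, weights, library set and libraries left out.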

Additional observations from a re-analysis of the deposited data

How the results depend on the processing

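No paired analysis was possible because no replicate number could be given to a recovered library. Among the alternatives tried, no log2 FC of the 4 members changed sign. The main log2 FCs, with a pseudocount of 1, were 3.51 for mir-135a-1, 3.35 for mir-135a-2, -1.38 for mir-135b and 4.87 for mir-1251. Equal totals in both groups shifted each by -0.48, equal totals without mir-10a by 0.44, and centring on the median by 0.08, which brought mir-135b to -1.85, -0.94 and -1.30. A pseudocount of 5 gave 2.70 for mir-135a-1 and 3.19 for mir-1251. The C libraries alone gave 2.21 for mir-135a-1, 2.09 for mir-135a-2, -0.73 for mir-135b and 3.77 for mir-1251, and A and B alone gave 5.68 for mir-1251. Leaving out 1 library gave 3.20 to 3.88 for mir-135a-1, 3.02 to 3.74 for mir-135a-2, -1.81 to -1.03 for mir-135b and 4.62 to 5.56 for mir-1251, the last without ESC library C, the only ESC library with a read of it.

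limma called 51 of 318 miRNAs. A filter of 10 or more reads in all 6 libraries gave 31 of 227, the library set as a covariate 146 of 318 and libraries A and B alone 163 of 326. Leaving out 1 library gave 17 to 54 calls among 320 to 331 tested. These fits, and that with A and B alone, asked for 10 reads in fewer libraries than the main fit did. The counts were 17 and 19 without A or B of the ESC libraries, and 29 and 22 without A or B of the NC libraries. The cause was not tested. Of the other neural miRNA genes 3 of 13 tested were called, 9 of 13 with the covariate and 9 of 14 with A and B alone. Without 1 library 2 to 3 of 13 or 14 were called. Groups did not overlap in 99 miRNAs, and in 245 with A and B alone, where fewer libraries have to separate. Depth limited the ESC values of mir-135a and mir-1251, which rest on 12 reads or fewer over 3 libraries.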
